A study of Mus musculus with 2 samples.

Results

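The T cell receptor variable segments are the 147 genes whose mouse symbol starts with Trav, Trbv, Trgv or Trdv, out of 43346 genes with an Ensembl identifier in the deposited tables. Of these, 143 took their symbol from the gene identifier and 4 (Trbv4, Trav7n-6, Trav5n-3 and Trav5d-3) from their transcript identifier. The set holds 106 alpha segments (Trav), 35 beta segments (Trbv), 1 gamma segment (Trgv2) and 5 delta segments (Trdv). T cell receptor alpha, beta and delta segments that only the reference annotation holds, and the delta constant gene, are not analysed here.

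Polyadenylated RNA of whole spleen from 1 C57BL/6J male, 10 weeks old, was sequenced as 2 libraries. Technical replicate 2, made in May 2015, held 3806381 expected counts on genes, and technical replicate 1 held 27528824, a depth ratio of 7.23. The labels give no treatment and no second animal, so every ratio is technical replicate 2 over technical replicate 1, with 1 library on each side. An expected count is the number of reads assigned to a gene, with reads shared between genes divided among them, and TPM is a level per length, scaled so that all genes of a library sum to 1000000.

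T cells build their antigen receptor by joining a V segment to a J segment, with a D segment between them in beta and delta chains, and splicing the joined exon to a constant region. The V segment encodes most of the variable domain, including the first and second antigen-binding loops and the start of the third, so the V segments in a tissue reflect its T cell repertoire. Most splenic T cells carry an alpha and a beta chain, and a minority carry gamma and delta chains. Bulk RNA reads give the sum over all T cells, in which fewer T cells and less receptor RNA per cell cannot be told apart.

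The 3′ ends of the segments on which the results turn are printed first, because the V-encoded start of the third loop lies there. They are the last 54 bases of each V transcript, 5′ to 3′, from GENCODE release M21 on GRCm38, and the capitals mark the codon of the conserved cysteine that opens the third loop. The first set holds the beta segments with the most counts in technical replicate 1, together with the whole Trbv13 family. Trbv3 lies at chr6:41048290-41048828, Trbv13-1 at chr6:41116007-41116468, Trbv13-2 at chr6:41121396-41121832, Trbv13-3 at chr6:41130147-41130585, Trbv15 at chr6:41141188-41141658 and Trbv19 at chr6:41178375-41179048, all on the plus strand.
Trbv3: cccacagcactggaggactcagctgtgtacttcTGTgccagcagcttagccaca
Trbv13-1: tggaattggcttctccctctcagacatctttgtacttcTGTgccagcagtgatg
Trbv13-2: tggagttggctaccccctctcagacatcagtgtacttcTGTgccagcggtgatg
Trbv13-3: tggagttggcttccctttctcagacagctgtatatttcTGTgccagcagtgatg
Trbv15: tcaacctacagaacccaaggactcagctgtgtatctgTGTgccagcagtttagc
Trbv19: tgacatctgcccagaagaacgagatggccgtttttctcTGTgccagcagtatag

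The second set holds alpha segments that exist in repeated copies, marked d or n in the symbol, and shows how alike the copies are. Trav3-3 (chr14:53665929-53666506) is the only alpha segment with counts in both libraries, and Trav3d-3 (chr14:52972448-52973038) and Trav3n-3 (chr14:53283585-53284175) are its copies. Trav11 (chr14:53519303-53519859) and Trav11d (chr14:52824357-52824912) can each supply the alpha chain of invariant natural killer T cells. All 5 are on the plus strand. The release M21 transcripts of Trav3-3 and Trav11d differ in length from the deposited ones (419 against 418 and 342 against 359 bases).
Trav3-3: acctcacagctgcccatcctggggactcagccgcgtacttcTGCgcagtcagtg
Trav3d-3: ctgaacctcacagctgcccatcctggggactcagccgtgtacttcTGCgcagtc
Trav3n-3: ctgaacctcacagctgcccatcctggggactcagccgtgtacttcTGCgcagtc
Trav11: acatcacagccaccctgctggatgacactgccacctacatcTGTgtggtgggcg
Trav11d: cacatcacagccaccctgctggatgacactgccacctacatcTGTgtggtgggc

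The cysteine codon was searched in the same 54-base end of every member as TGT or TGC, 6 bases after the start of a tyrosine codon or, where that found none, of a phenylalanine codon followed by G. It was found as TGT in 121 members and as TGC in 13. In 11 members neither was found by this search, 10 of them annotated as pseudogenes, and 2 members had no release M21 transcript under their symbol. Trav3-3, Trav3d-3 and Trav3n-3 carry TGC, and the beta segments printed above carry TGT.

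Both libraries come from the same mouse, but almost all V segment counts were in technical replicate 1. The 147 members summed to 6 counts in technical replicate 2 and 2646 counts in technical replicate 1. Their summed level was 4.29 TPM in technical replicate 2 and 710.21 TPM in technical replicate 1. In technical replicate 2, 2 members had a count, against 115 in technical replicate 1. Those 2 members were Trbv13-2 and Trav3-3, with 3 counts each. With library sizes scaled by TMM, the sum was 25.4-fold lower in technical replicate 2 (95% counting interval 11.7 to 69.3), a log2 ratio of -4.67 (-6.12 to -3.54). At equal level, technical replicate 2 would have held 152.5 V counts under TMM scaling, and 365.9 if libraries were scaled by total count. The 2 libraries do not serve as biological replicates, so no p-value is given, and intervals cover counting error only.

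Over all genes a count of 0 in technical replicate 2 was less common. Of the 115 members with a count in technical replicate 1, 2 had one in technical replicate 2. The share was 68.5% over all genes with a count in technical replicate 1, which were not matched to the members in count. Of all 43346 genes, 32.7% had a count in technical replicate 2 and 46.3% in technical replicate 1. Of the 18 members with at least 50 counts in technical replicate 1, 1 had a count in technical replicate 2. Over all genes with at least 50 counts, with no upper limit, the share was 91.4%. Of 2542 genes tested (as defined below) within the technical replicate 1 count range of these members, without antigen receptor genes, 368 had 0 counts in technical replicate 2.

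**Figure D1:**
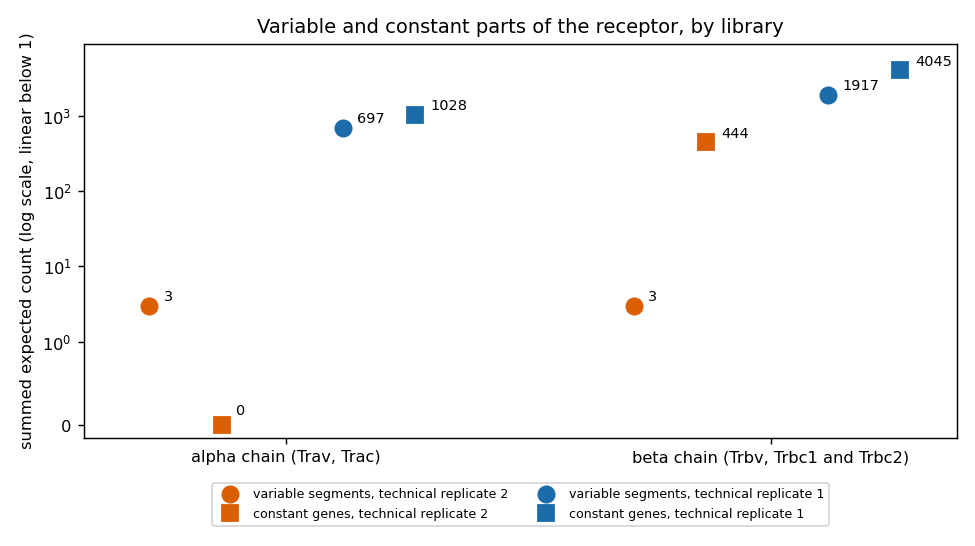
Summed expected counts (log scale, linear below 1) of variable segments (circles) and constant genes (squares) of the alpha and beta chains, in technical replicate 2 (orange) and technical replicate 1 (blue); each point is 1 library. Variable segments are at 3 counts in technical replicate 2 for each chain, while beta constant genes keep 444 counts and Trac has 0.

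The beta segments carried most of the V counts and gave the clearest view of usage. The 35 Trbv members summed to 3 counts (2.49 TPM) in technical replicate 2 and 1917 counts (498.26 TPM) in technical replicate 1, a log2 ratio of -5.20 (-7.48 to -3.65). In technical replicate 1 they made up 72.4% of V counts (70.7 to 74.1, exact Clopper-Pearson 95% interval), and 23 of 35 had a count. The locus lies on chromosome 6. The 7 segments with the most counts were needed to reach 50% of the Trbv counts, and the highest, Trbv3, held 13.5%.

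Trbv13-2, known as Vβ8.2 in the older naming and common among invariant natural killer T cells, had 3 counts (2.49 TPM) in technical replicate 2 and 155 counts (53.6 TPM) in technical replicate 1. Its log2 ratio was -1.57, and the interval of -3.87 to -0.0004 reached within 1.5-fold, so it was not called. It was the highest Trbv member per length in technical replicate 1 and the only one with counts in both libraries.

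Trbv3 had 0 counts in technical replicate 2 and 258 counts (51.01 TPM) in technical replicate 1. Trbv15 had 0 counts in technical replicate 2 and 137 counts (39.71 TPM) in technical replicate 1. Trbv29, the older Vβ7 and another segment used by invariant natural killer T cells, had 0 counts in technical replicate 2 and 111 counts (35.43 TPM) in technical replicate 1. For these 3 segments all counts were in technical replicate 1.

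Trbv5 had 0 counts in technical replicate 2 and 111 counts (32.63 TPM) in technical replicate 1. Trbv13-1 had 0 counts in technical replicate 2 and 108 counts (32.0 TPM) in technical replicate 1. Trbv4 had 0 counts in technical replicate 2 and 111 counts (28.47 TPM) in technical replicate 1. These 3 segments lay close together in level. Trbv16 had 0 counts in technical replicate 2 and 102 counts (25.65 TPM) in technical replicate 1. Trbv19, the older Vβ6 and a common partner of the invariant chain of mucosal-associated invariant T cells, had 0 counts in technical replicate 2 and 135 counts (18.81 TPM) in technical replicate 1. Trbv2 had 0 counts in technical replicate 2 and 111 counts (15.72 TPM) in technical replicate 1.

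The order of the beta segments depended on whether reads or levels per length were compared. By count in technical replicate 1 the order began Trbv3, Trbv13-2, Trbv15, Trbv19, whereas by TPM it began Trbv13-2, Trbv3, Trbv15, Trbv29. Trbv19 moved from rank 4 by count to rank 12 by TPM, and Trbv2 from rank 5 to rank 16. Their transcripts are the longest of the expressed set, with effective lengths of 374.99 and 369 bases, against 151.08 bases for Trbv13-2. Among the 19 Trbv members with at least 10 counts, 1 of the 18 steps between neighbours in the TPM order exceeded counting error. It was that between Trbv3 and Trbv15, with a ratio per length of 1.28 (95% counting interval 1.04 to 1.59). Trbv13-2 and Trbv3 differed by a ratio per length of 1.05 (0.86 to 1.29). The ends of the order were apart, with Trbv13-2 at 53.6 TPM and Trbv31 at 11.81 TPM in technical replicate 1, a ratio of 4.54 (3.29 to 6.35).

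**Figure D2:**
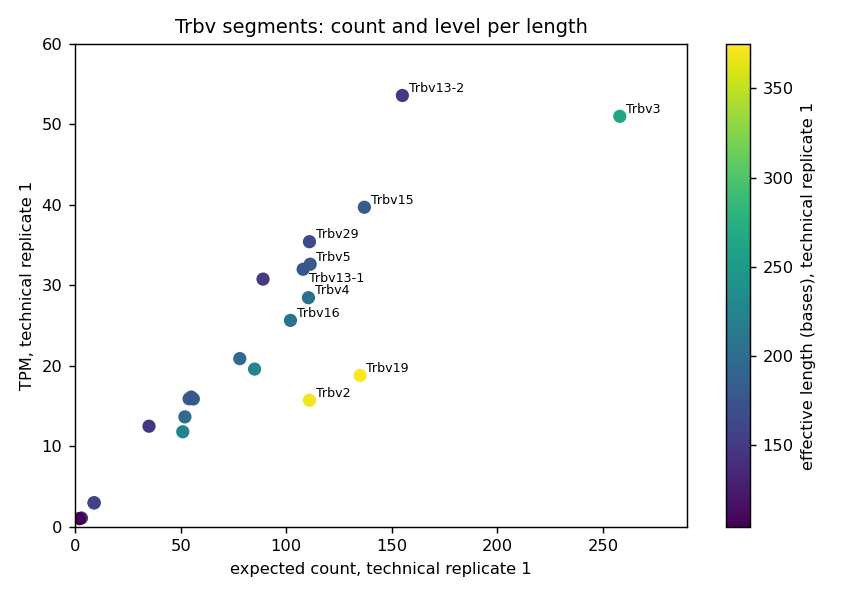
Expected count (x axis) against TPM (y axis) in technical replicate 1 for the 23 Trbv segments with a count; each point is 1 segment, coloured by effective length in bases. Trbv2 and Trbv19, with the longest transcripts, lie below the other segments of similar count, and Trbv13-2 and Trbv3 have the highest TPM.

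By family, Trbv13 led. Its 3 members held 352 counts in technical replicate 1, 18.4% of Trbv counts (16.7 to 20.2), and 23.4% of Trbv TPM. The 3 members are related but distinct: Trbv13-2 and Trbv13-3 differ at 32 of 340 aligned bases, and Trbv13-2 and Trbv13-1 at 40 of 337. Trbv13-3 had 0 counts in technical replicate 2 and 89 counts (30.78 TPM) in technical replicate 1. All 3 counts of the family in technical replicate 2 were on Trbv13-2. The Trbv12 family, the older Vβ5, held 130 counts in technical replicate 1, of which Trbv12-2 had 78 and Trbv12-1 had 52, while Trbv12-3 had 0 in both libraries. Of the 31 Trbv families 29 have a single member, and 20 had a count in technical replicate 1.

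Of the remaining beta segments, Trbv1 had 85 counts, Trbv17 had 56, Trbv14 had 55, Trbv26 had 54, Trbv31 had 51 and Trbv20 had 35 in technical replicate 1, and each had 0 in technical replicate 2. Trbv31 is the segment that lies beyond the constant genes on the opposite strand and joins by inversion. Trbv23 and Trbv24 had 9 counts each, Trbv30 had 3 and Trbv21 had 2 in technical replicate 1. Trbv24 is annotated as a pseudogene in this strain, and its 9 counts were the only ones among the 13 Trbv pseudogenes. The other 12 Trbv members were at 0 in both libraries. Divided by order along the chromosome into 4 parts, the segments from Trbv1 to Trbv8 held 35.3% of Trbv counts in technical replicate 1, those from Trbv9 to Trbv13-3 25.1%, those from Trbv14 to Trbv22 27.2% and those from Trbv23 to Trbv31 12.4%.

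**Figure D3:**
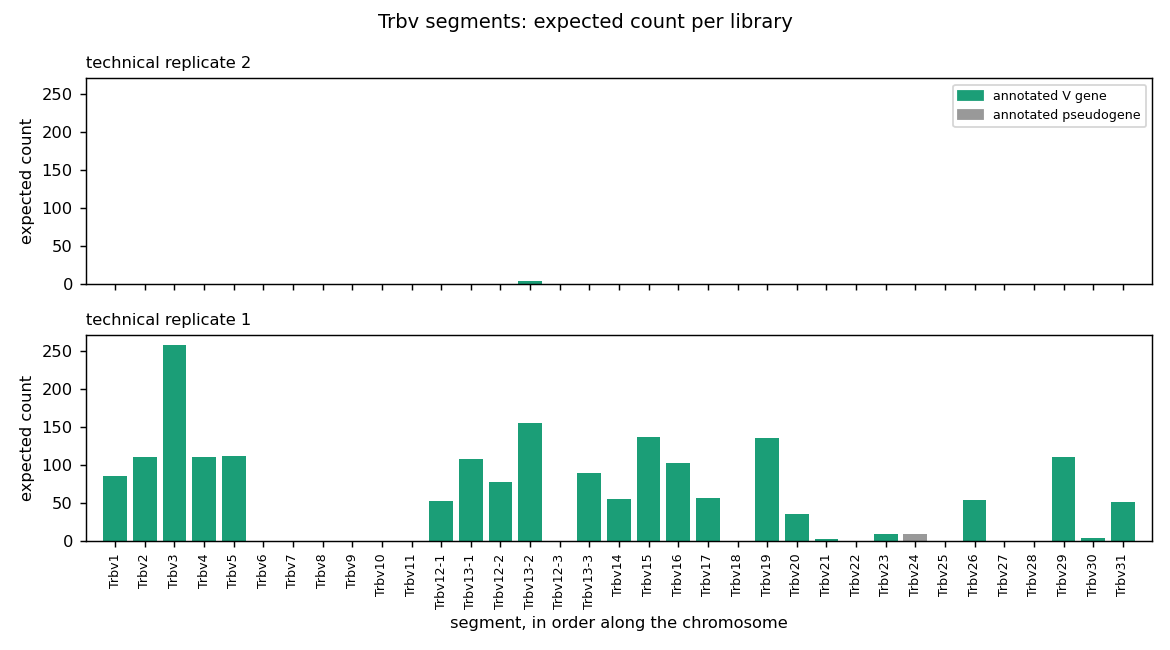
Expected count (y axis, same scale in both panels) of each of the 35 Trbv segments in order along chromosome 6, in technical replicate 2 (upper panel) and technical replicate 1 (lower panel); grey bars are annotated pseudogenes. The upper panel holds only the 3 counts of Trbv13-2, and the lower panel reaches 258 counts at Trbv3.

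The alpha segments were spread more thinly over more genes. The 106 Trav members summed to 3 counts (1.80 TPM) in technical replicate 2 and 697 counts (202 TPM) in technical replicate 1, a log2 ratio of -3.74 (-6.02 to -2.19). In technical replicate 1 they made up 26.3% of V counts (24.7 to 28.1), and 87 of 106 had a count, none above 38.01. It took 17 segments to reach 50% of the Trav counts, and the highest held 5.45%. Alpha and beta segments were not distinguishable in their ratio of technical replicate 2 over technical replicate 1, since alpha counts per beta count were 2.75 times as high in technical replicate 2 as in technical replicate 1, with an interval of 0.37 to 20.6.

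Trav3-3 had 3 counts (1.80 TPM) in technical replicate 2 and 17 counts (4.72 TPM) in technical replicate 1. Its log2 ratio of 1.61 had an interval of -0.80 to 3.40, so the depth does not tell its 2 levels apart. All 3 counts in technical replicate 2 were assigned to its longer transcript of 418 bases.

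Trav14d-1 had 0 counts in technical replicate 2 and 38.01 counts (8.88 TPM) in technical replicate 1. Trav6d-6 had 0 counts in technical replicate 2 and 29.43 counts (7.20 TPM) in technical replicate 1. Trav7-2 had 0 counts in technical replicate 2 and 26 counts (6.45 TPM) in technical replicate 1. These were the 3 alpha segments with the most counts. The first and second are repeated copies with fractional counts from shared reads, treated below. Trav6-7-dv9, which can also join to the delta chain, had 0 counts in technical replicate 2 and 24 counts (6.70 TPM) in technical replicate 1. Trav16 had 0 counts in technical replicate 2 and 22.45 counts (5.09 TPM) in technical replicate 1, and its copy Trav16n had 0 counts in technical replicate 2 and 19.25 counts (6.14 TPM) in technical replicate 1. Trav14-2 had 20 counts in technical replicate 1, Trav6-3 had 19 and Trav14-3 had 18.99. Trav12-2 and Trav8-2 had 18 each and Trav10 had 17.54, and all of these segments had 0 in technical replicate 2. Trav8-2 is annotated as a pseudogene. Of its 18 counts, 13.89 were on a deposited transcript of 2371 bases that does not carry its symbol in release M21. Among the 25 Trav members with at least 10 counts, 1 of 24 steps between neighbours in the TPM order exceeded counting error, that between Trav8-2 at 1.79 TPM and Trav7n-6 at 0.48 TPM.

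Trav1 supplies the invariant alpha chain of mucosal-associated invariant T cells in mouse, and it had 0 counts in technical replicate 2 and 2 counts (0.58 TPM) in technical replicate 1. The Trav11 family supplies that of invariant natural killer T cells. In technical replicate 1 the expected counts placed 11 counts (3.39 TPM) on Trav11d and 0 on Trav11. The deposited posterior means, a second estimate from the same reads, placed 8.41 ± 2.13 on Trav11d and 2.59 ± 2.13 on Trav11 (posterior SD). The release M21 transcripts of the 2 genes are identical over 342 aligned bases, so the 11 counts belong to the pair and their division is uncertain. Both genes had 0 counts in technical replicate 2.

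The C57BL/6 alpha locus carries a repeated stretch whose segments are named with d or n. The 60 repeated copies held 290 of 697 Trav counts in technical replicate 1, 41.6% (37.9 to 45.4), and the 46 segments without d or n held 407. By letter, each sum rounded by itself, the 33 d copies held 199 counts and the 27 n copies 92. This split also depends on how shared reads were divided. All 3 Trav counts of technical replicate 2 were on a segment without d or n. Along the chromosome, the part from Trav12d-3 to Trav12n-3, made up of 27 repeated copies, held 11.2% of Trav counts in technical replicate 1, and the part from Trav13-1 to Trav21-dv12, with 27 segments and no repeated copy, held 36.0%.

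Reads shared between copies make their single values uncertain. Of the 36 members with a fractional expected count, 34 were Trav, and these 34 held 45.2% of Trav counts in technical replicate 1. Shared reads can also leave whole counts, as on the pair Trav3d-3 and Trav3n-3 below, so this share does not cover all sharing. In release M21, 13 pairs of d and n copies have identical transcripts. Of the 12 pairs with counts, 9 were split into equal amounts, such as 7 and 7 on Trav3d-3 and Trav3n-3, 7.5 and 7.5 on Trav6d-7 and Trav6n-7, and 5.5 and 5.5 on Trav4d-4 and Trav4n-4. These 13 pairs summed to 117.01 counts. The pair Trav14d-1 and Trav14n-1, identical over 340 bases, had 38.01 and 0 counts. All 38.01 were assigned to a longer deposited transcript of Trav14d-1, of 414 bases. Their posterior means were 37.45 ± 0.91 and 0.56 ± 0.91 (posterior SD). In release M21, Trav6d-7 differs from Trav6-7-dv9 at 6 of 358 bases, and had 7.5 counts, against 24 on Trav6-7-dv9. Trav10d differs from Trav10 there at 3 of 406 bases, and had 7.54 counts, against 17.54 on Trav10. The deposited transcripts of Trav6d-7 and Trav10 are shorter, at 317 and 343 bases, so these differences are not those of the sequences that were counted.

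**Figure D4:**
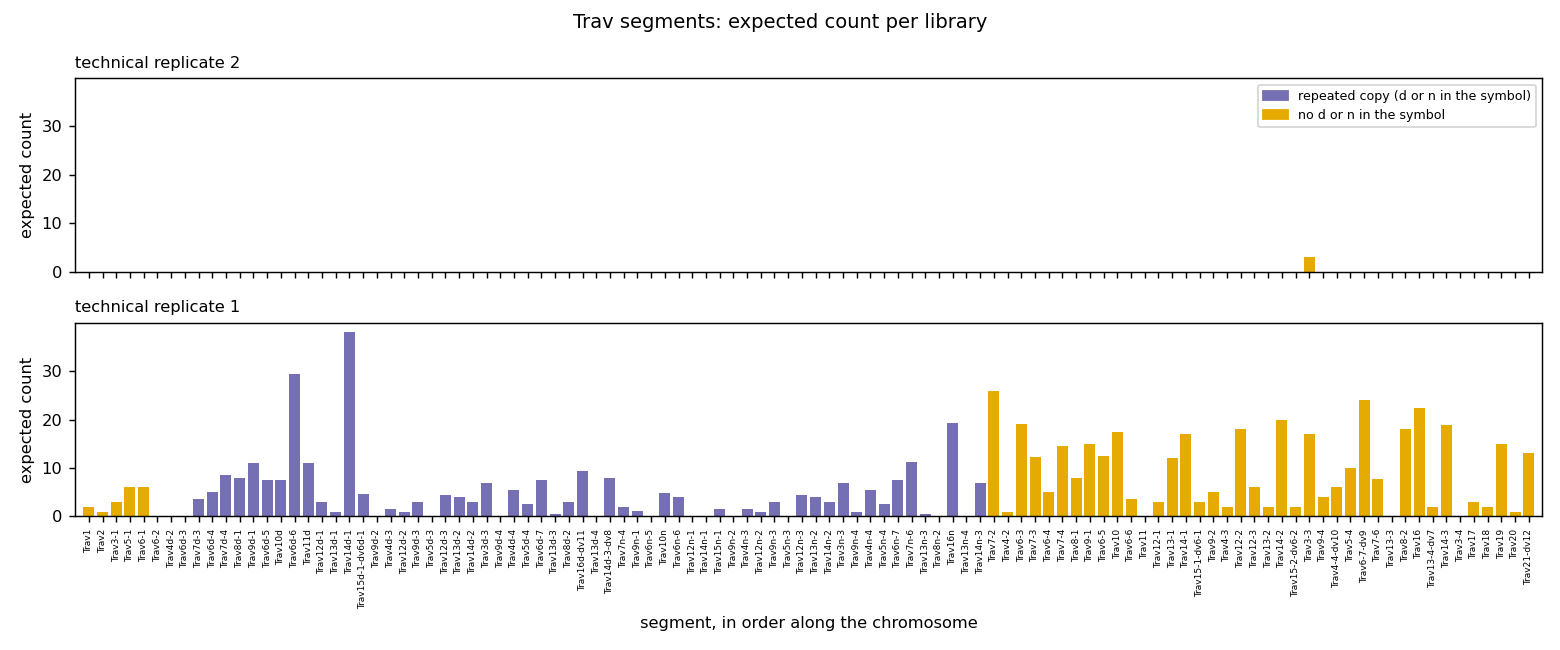
Expected count (y axis, same scale in both panels) of each of the 106 Trav segments in order along chromosome 14, in technical replicate 2 (upper panel) and technical replicate 1 (lower panel); purple bars are repeated copies with d or n in the symbol, yellow bars the others. The upper panel holds only the 3 counts of Trav3-3, and in the lower panel Trav14d-1 is highest at 38.01 counts.

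By family, sums are less touched by the division between copies. All 21 Trav families had a count in technical replicate 1. Trav6 held 131 counts or 18.8% of Trav counts (16.0 to 21.9), Trav14 held 115 counts or 16.5% (13.8 to 19.5), and Trav7 held 86 counts or 12.3% (9.99 to 15.01). These 3 families held 47.6% of Trav counts together, and the first 3 Trbv families held 39.0% of Trbv counts. The shares are not adjusted for family size: Trav6, Trav14 and Trav7 have 15, 9 and 8 members, and Trbv13, Trbv3 and Trbv15 have 3, 1 and 1. Per member, Trav6 held 8.73 counts, Trav14 12.8 and Trav7 10.75 in technical replicate 1. The highest Trav family per member was Trav16, with 17. Repeated copies gave 61.05 of 131 counts in Trav6, 59.01 of 115 in Trav14, 25.38 of 86 in Trav7 and 28.55 of 51 in Trav16. Families outside the repeat, such as Trav19 with 15 counts and Trav21 with 13, had no such copies. The 9 Trav members with dv in their symbol, which can join to either the alpha or the delta chain, held 72 counts or 10.3% of Trav counts.

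**Figure D5:**
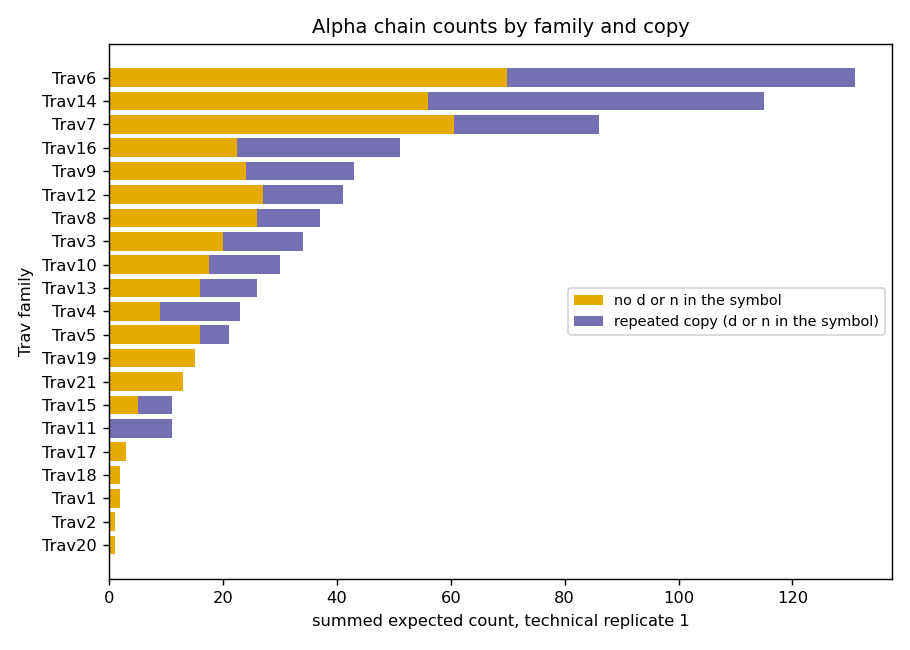
Summed expected count in technical replicate 1 (x axis) of each Trav family (y axis), split into segments without d or n in the symbol (yellow) and repeated copies (purple). Trav6, Trav14 and Trav7 lead with 131, 115 and 86 counts, and both kinds of segment contribute to each.

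Gamma and delta segments were low in technical replicate 1 and absent from the counts of technical replicate 2. Trgv2, a gamma chain segment on chromosome 13, had 0 counts in technical replicate 2 and 16 counts (5.20 TPM) in technical replicate 1. The annotation names the other gamma segments Tcrg-V, which places them outside the members. All 6 of these had 0 counts in technical replicate 2, and in technical replicate 1 Tcrg-V4 had 22 counts, Tcrg-V1 had 7, Tcrg-V6 had 2 and the rest 0. The 5 Trdv members summed to 0 counts in technical replicate 2 and 16 counts (4.75 TPM) in technical replicate 1. Trdv1 and Trdv4 had 6 counts each, Trdv2-2 had 3, Trdv5 had 1 and Trdv2-1 had 0. Trgv and Trdv each made up 0.605% of V counts in technical replicate 1 (0.35 to 0.98). At equal level 16 counts correspond to 0.922 counts in technical replicate 2 under TMM scaling, so no difference was detectable at this depth.

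Gene by gene, 18 members had a mean of at least 1 TPM and at least 50 counts over both libraries, and all 18 were Trbv. They passed these minimums through technical replicate 1 alone, and 17 of the 18 had 0 counts in technical replicate 2, so that a call of higher was not possible for those 17. The counts of calls therefore describe the members and are no support for a difference. Of the 18, 9 were lower in technical replicate 2, with the whole 95% interval beyond 1.5-fold, and 9 were not called. Over all 12467 genes tested, 32.6% were lower and 28% higher. By total count scaling all 18 were lower, as were 58.5% of all genes. At 2-fold, 3 of the 18 were called lower, against 25.2% of all genes, and with a 99% interval 1 was, against 29.1% of all genes. For a point value a count of 0 was replaced by 3 counts, while the 95% interval of a count of 0 reaches 3.69 counts. With 3 counts the median log2 ratio of the 18 was -1.01, against -0.27 over all genes tested, and the median of their upper limits was -0.55.

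The 9 segments called lower were Trbv3, Trbv15, Trbv19, Trbv2, Trbv29, Trbv4, Trbv5, Trbv13-1 and Trbv16. The upper 95% limit of the log2 ratio was -2.001 for Trbv3, -1.08 for Trbv15 and -1.06 for Trbv19. Trbv16, the nearest to the threshold of the 9, had an upper limit of -0.65. Depth sets this list: under TMM scaling, a gene with 0 counts in technical replicate 2 needed at least 98 in technical replicate 1 to be called. That number was reached by 10 members. Of those 10 members 9 had 0 counts in technical replicate 2, against 5.92% of the 11524 genes with at least 98 counts, a set with no upper limit. The exception was Trbv13-2. No Trav member reached 98 counts, so the alpha segments could be compared only as sums.

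The constant genes are spliced to every rearranged V segment and behaved differently between chains. Trbc1, a beta constant gene, had 116 counts (32.86 TPM) in technical replicate 2 and 1458 counts (139.53 TPM) in technical replicate 1, with a log2 ratio of 0.46 (0.18 to 0.74) under TMM scaling and -0.80 under total count scaling. Trbc2, the other beta constant gene, had 328 counts (100.14 TPM) in technical replicate 2 and 2587 counts (269.81 TPM) in technical replicate 1. Its log2 ratio was 1.14 (0.97 to 1.30), called higher, under TMM scaling, and -0.13 and not called under total count scaling. Before rounding, technical replicate 2 held 116.25 counts on Trbc1 and 327.75 on Trbc2, so shared reads were divided. The interval of each gene does not cover that division, which touches their sum less. Summed, the beta constant genes gave a log2 ratio of 0.93 (0.78 to 1.07) under TMM scaling and -0.33 under total count scaling, so their direction depended on the scaling. The 2 scalings differ by 1.26 in every log2 ratio, and the share of higher among all calls was 46.2% under TMM and 20% under total count scaling.

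Trac, the alpha constant gene, had 0 counts in technical replicate 2 and 1028 counts (241.31 TPM) in technical replicate 1. The upper 95% limit of its log2 ratio was -4.00. At equal level 59.3 counts would have stood in technical replicate 2. The gamma constant genes Tcrg-C1, Tcrg-C2 and Tcrg-C4 had 0 counts each in technical replicate 2 and 50, 53 and 49 counts in technical replicate 1, and Tcrg-C3 had 0 in both. The 77 joining segments had an effective length of 0 in the deposited tables and 0 counts in both libraries.

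Within a library, the share of V among receptor counts needs no scaling between libraries. V segments made up 6 of 450 V and constant counts in technical replicate 2, 1.33% (0.49 to 2.88), and 2646 of 7871 in technical replicate 1, 33.6% (32.6 to 34.7). For the beta chain the V share was 0.671% (0.14 to 1.95) in technical replicate 2 and 32.2% (31.0 to 33.4) in technical replicate 1. The number of Trbv counts per beta constant count was 70.1-fold lower in technical replicate 2 (95% counting interval 23.8 to 342). For the alpha chain the 3 counts of technical replicate 2 were all V and none Trac, against a V share of 40.4% (38.1 to 42.8) in technical replicate 1. For the beta chain the interval excludes 1, so the difference in this ratio was beyond counting error.

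The V segments of immunoglobulins were also near 0 in technical replicate 2. These 283 genes, which B cells join by the same reaction, summed to 3 counts (2.33 TPM) in technical replicate 2 and 64429 counts (20935 TPM) in technical replicate 1. Of 146 tested, 144 had 0 counts in technical replicate 2, so a call of higher was not possible for these. Under TMM scaling 126 of the 146 were lower, or 86.3%, against 32.6% of all genes tested. By total count all 146 were lower, against 58.5% of all genes tested. These calls describe the genes and are no support for a difference. Relative to immunoglobulin V segments, the T cell receptor V counts were 48.7-fold higher in technical replicate 2 than in technical replicate 1 (10.4 to 301), so the 2 sets of V segments differed in their ratio beyond counting error.

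The markers of T cells were present in both libraries. All 18 listed T cell genes had counts in each, with a sum of 2023 counts (305.06 TPM) in technical replicate 2 and 36510 counts (1151 TPM) in technical replicate 1, a log2 ratio of -0.06 (-0.12 to 0.01) for the counts under TMM scaling and -1.32 under total count scaling. Of the 18, 5 were higher, 6 lower and 7 not called under TMM scaling, and 1 was higher and 11 lower under total count scaling. Cd3d, a chain of the CD3 complex that the receptor needs to reach the cell surface, had 120 counts in technical replicate 2 and 1499 in technical replicate 1. Cd3e, another CD3 chain, had 27 counts in technical replicate 2 and 1314 in technical replicate 1 and was lower, at a log2 ratio of -1.49 (-2.10 to -0.94). Lck, the kinase that starts receptor signalling, had 315 counts in technical replicate 2 and 2428 in technical replicate 1 and was higher, at 1.17 (1.00 to 1.34), under TMM scaling, with -0.09 and no call under total count scaling. Of the 8 B cell markers 3 were higher and 5 lower under both scalings, and of the 6 NK cell markers 1 was higher and 3 lower under TMM scaling, against 0 higher and 4 lower by total count. Rag1, Rag2 and Dntt act in receptor rearrangement, and Ptcra encodes the alpha chain of the pre-T cell receptor. Of these, technical replicate 2 had 4 counts on Ptcra and 0 on the other genes, and technical replicate 1 had 18 on Rag1, 81 on Dntt and 0 on Rag2 and Ptcra. The part of cell composition in the V result was not tested.

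The V segments are short, with deposited lengths per gene of 260 to 1410 bases in technical replicate 1 and a median of 344 bases. Their median effective length was 209.45 bases in technical replicate 2 and 154.94 bases in technical replicate 1. Among the 371 genes tested with a length of 340 to 566 bases, the range of the tested members, 39.9% were lower. Without antigen receptor genes, a choice made after the values were seen, 11.8% of 220 such genes were lower (26.4% by total count) and their median log2 ratio was 2.29 (1.03 by total count). With GC content also in the range of the tested members, 13.5% of 133 such genes were lower (30.8% by total count). The part of length and GC content in the V result was not tested beyond these values.

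Annotated pseudogenes took few counts. The 20 pseudogene members held 29 counts in technical replicate 1, 1.10% of V counts (0.74 to 1.57), on 4 genes, and 0 in technical replicate 2. Of the 29 counts, 18 were on Trav8-2. Of the 25 members with more than 1 deposited transcript, 24 had counts in technical replicate 1, and in 20 of these all counts were on a single transcript.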

How the data were processed

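Alignment was to mm10 transcripts of GENCODE M4, per the text deposited with the tables. The quantifier and its version are not given in the sources used here. The authors deposited an expected count per gene and transcript, and rounded values were used for intervals. The deposited TPM values, per the file headers, are levels per effective length. The deposited percent values, per the file headers, give each transcript's share of its gene, and lengths are in bases.

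Symbols, coordinates, gene classes and sequences came from GENCODE release M21 on GRCm38. Of 43346 Ensembl genes, 42462 had a symbol by gene identifier and 292 by transcript identifier. The 26345 other rows (0.00021% of counts in technical replicate 2 and 1.09e-05% in technical replicate 1) were left out.

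TMM scaling factors came from edgeR 4.0.16 under R 4.3.3. Ratios have exact Clopper-Pearson 95% intervals, conditional on the summed count. The calling rule (1.5-fold) was checked only on counts simulated with counting error alone. That check cannot speak to other spread between the libraries. The named segments are the leading Trav and Trbv (10 each, with ties) and all Trgv and Trdv by count in technical replicate 1, those with a count in technical replicate 2, Trav1, Trav11 and the constant genes; some others are named by role or to complete a count. Members and gene lists were chosen with earlier results of these data known. PCR duplicates are not independent molecules, so intervals cover counting error only. Alternatives used DESeq2 1.42.0 size factors, total counts, other filters and TPM. Python 3.11.15 with scipy 1.17.1 was used elsewhere.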

Additional observations from a re-analysis of the deposited data

How the results depend on the processing

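Of 101 alternative values for 20 results, 69 kept direction and call, stayed inside the interval or, for numbers of members, stayed within 1.5-fold. Among these, the ratios of Trgv and Trdv from counts rest on the value put in place of 0 counts in technical replicate 2. Their agreement across alternatives is therefore no check. The log2 ratios of all V segments, of Trav and of Trbv were called lower in technical replicate 2 under every alternative with an interval, and summed TPM, which has none, gave the same direction. The number of members called lower was 18 by total count, 3 at 2-fold and 1 with a 99% interval, against 58.5%, 25.2% and 29.1% of all genes tested. At a minimum of 10 counts, 0 members were detected in technical replicate 2 and 45 in technical replicate 1. At equal level under TMM scaling a gene has 17.3-fold fewer counts in technical replicate 2, so this minimum cannot separate the members from depth. The share over all genes at this minimum is not given. All 7 constant genes summed to a log2 ratio of 0.56 (0.42 to 0.70) under TMM scaling, not called. This ratio turned to -0.70 by total count, -2.33 by summed TPM and -4.50 with whole counts alone, which leaves out Trbc1 and Trbc2. Trgv and Trdv are listed at 0 TPM in technical replicate 2, so their values of -2.63 and -2.52 by summed TPM are set by the pseudocount of 1 and are no measured ratio. The V share of V and constant counts was 3.12% in technical replicate 2 and 51.3% in technical replicate 1 by TPM. Over genes with whole counts it was 100% in technical replicate 2 and 64.1% in technical replicate 1. That filter leaves out Trbc1 and Trbc2, which held all constant counts of technical replicate 2, so the 100% is set by the filter. In technical replicate 1 the V share was 31.0% over genes with at least 10 counts. With symbols by gene identifier alone, an alternative chosen after seeing the data, it was 32.6%. By TPM the Trbv share was 70.2%, the Trav share 28.4%, and the shares of their chain 23.4% for Trbv13, 10.2% for Trbv3, 9.10% for Trav7 and 45.4% for repeated copies. Over members with whole counts these were 80.4%, 18.1%, 20.8%, 15.2%, 7.33% and 26.2%. Members with whole counts still include identical copies whose shared reads were split into equal whole amounts. Over members with at least 10 counts the Trbv share was 80.5%, the Trav share 18.8%, Trav14 21.3% and repeated copies 27.1%. Beyond the restriction to fewer members, the cause was not tested. Trdv had no member with 10 counts. No paired analysis was possible because each group holds 1 library. Under TMM scaling, a member with fewer than 98 counts in technical replicate 1 could not be called lower from 0 counts in technical replicate 2. That limit was 107 counts with DESeq2 size factors and 42 by total count.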
